A study of Homo sapiens with 8 samples.

Results

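The neurotrophins and their receptors were followed as 7 genes taken by name from a gene-level count table of 35238 symbols. The ligands were BDNF, NTF3 and NTF4, and the receptors were NGFR, NTRK2, NTRK3 and SORT1. The rule that lists them uses gene names and no measured value. All 7 passed the filter on low counts and were among the 15085 genes tested, but NTF4 passed only through its romidepsin and quisinostat libraries, where it was high, so its tests against the other 2 groups are not independent of the filter and the counts below are given with and without it.

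MP38, a uveal melanoma (UM) cell line, was treated for 24 h in 4 groups of 2 libraries, and every group received 0.1% DMSO. The control group received DMSO alone, and the drug groups received romidepsin at 40 nM, quisinostat at 40 nM or mivebresib at 1200 nM. Romidepsin and quisinostat inhibit histone deacetylases (HDACs), and mivebresib inhibits the BET family of bromodomain proteins. The comparison asked how HDAC and BET inhibition change the transcriptome of these cells at an early time, in 1 cell line grown in duplicate wells, so that the p-values measure the spread between wells.

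Neurotrophins are secreted survival and growth factors that are made as longer precursors and cleaved to their mature forms. Mature ligands signal through the Trk receptor tyrosine kinases, whereas the precursors bind p75NTR, the product of NGFR, together with sortilin, the product of SORT1. NGFR is also a marker of neural crest cells and of dedifferentiated melanoma states, and melanocytes share their neural crest origin with Schwann cells.

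Total counts ran from 28483235 to 29359024 per library, so depth was nearly even over the groups. The 2 control libraries differed from each other more than any other pair did, with a chi-square of 58.1 per degree of freedom over genes against 9.52 to 9.79 in the drug groups. Of 8 melanocytic markers, 7 exceeded 1 CPM (counts scaled to a common library total) in the control, romidepsin and quisinostat groups and 6 did so with mivebresib, and the markers summed to between 3520 and 5120 CPM in every library. TYRP1 carried most of that sum, with 2869 to 3866 CPM, and some other melanocytic markers fell with quisinostat or mivebresib. MITF fell 2.63-fold with quisinostat and 2.77-fold with mivebresib (edgeR adjusted p = 4.19e-06 and 4.67e-06). MLANA fell 2.07-fold and 2.52-fold in the same order (edgeR adjusted p = 4.35e-05 and 1.77e-05). SOX10 fell 3.80-fold with mivebresib (edgeR adjusted p = 3.8e-06). Not all of the list fell: TMM-scaled means with quisinostat were 501 CPM for PMEL and 3.22 for TYR, against 505 and 2.60 in control. With romidepsin TRPM1 stood at 5.95 CPM against 4.255 in control. The immune marker CD3E and the endothelial marker CDH5 were at 0 in all 8 libraries. Scaling by library size alone moved the median gene by 0.196 on the log2 scale with quisinostat, against -0.00361 with the TMM factors used here, and no member reversed its direction under that or the upper-quartile scaling.

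NGFR rose with all 3 drugs, and BDNF rose with both HDAC inhibitors and fell with mivebresib. No other member passed the test in all 3 comparisons. With the HDAC inhibitors every change past the threshold was a rise, and with mivebresib the 3 ligands and NTRK2 fell while NGFR rose. A gene was called higher or lower at an adjusted p below 0.05 by the edgeR quasi-likelihood test with Benjamini-Hochberg adjustment over all tested genes. With romidepsin 2 of 7 members were higher, NGFR and BDNF, where 15.2% of all tested genes were higher, and 0 were lower, where 15.8% of all genes were. With quisinostat 5 of 7 were higher against 28.0% of all genes, and 0 were lower against 25.1%. With mivebresib 1 was higher against 22.2% of all genes, and 4 were lower against 24.1%. Without NTF4, 4 of 6 were higher with quisinostat and 3 of 6 were lower with mivebresib. The median log2 fold change of the members was 0.485 under romidepsin, 1.11 under quisinostat and -1.24 under mivebresib (0.457, 0.932 and -0.721 without NTF4), while the median over all tested genes lay between -0.012 and 0.00669. These 3 comparisons share the same control libraries.

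**Figure D1:**
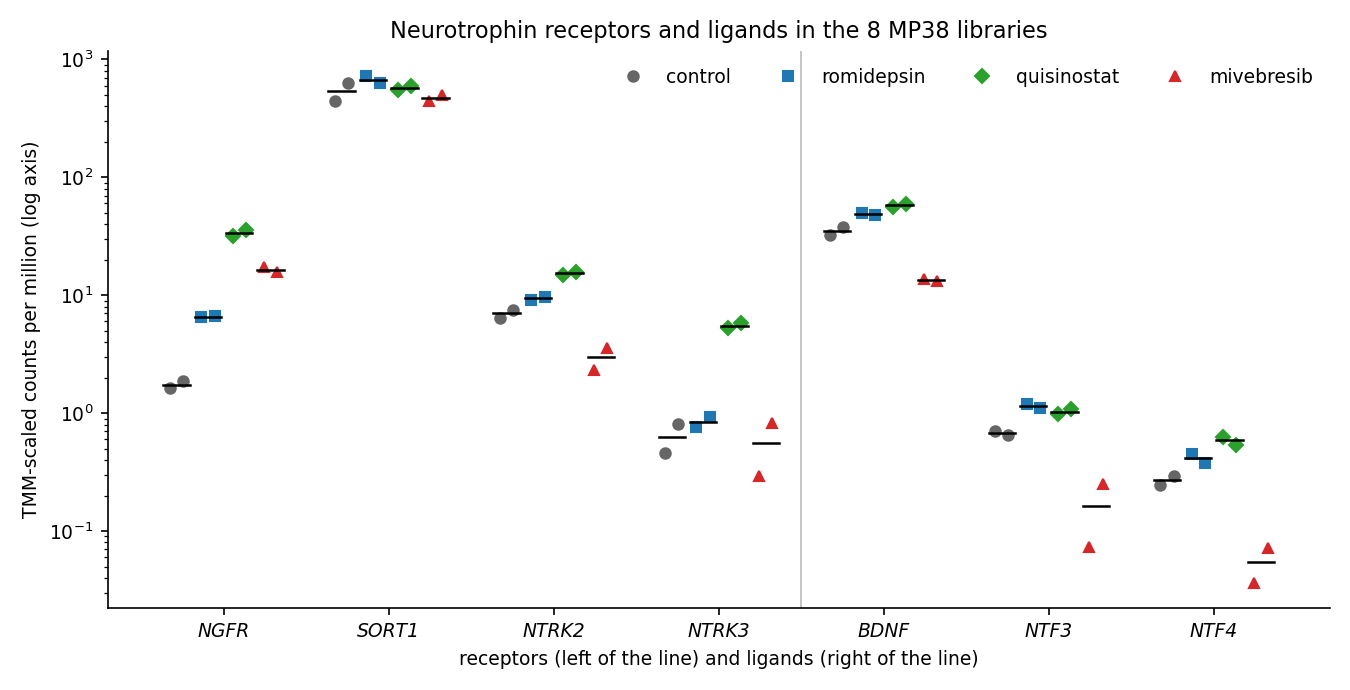
TMM-scaled CPM (log axis) of 4 receptor genes and 3 ligand genes in each of the 8 libraries, with points for libraries and black bars for group means (n = 2). NGFR lies lowest in control, and BDNF, NTF3, NTF4 and NTRK2 lie lowest with mivebresib.

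Fewer members passed the study's larger threshold, which adds a log2 fold change beyond 1.5. With romidepsin 1 member did so upward, NGFR, where 3.77% of all genes did. With quisinostat 2 did so upward, NGFR and NTRK3, where 11.2% of all genes did. With mivebresib 1 did so upward, NGFR, against 3.96% of all genes, and NTF3 and NTF4 did so downward, against 4.36%.

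**Figure D2:**
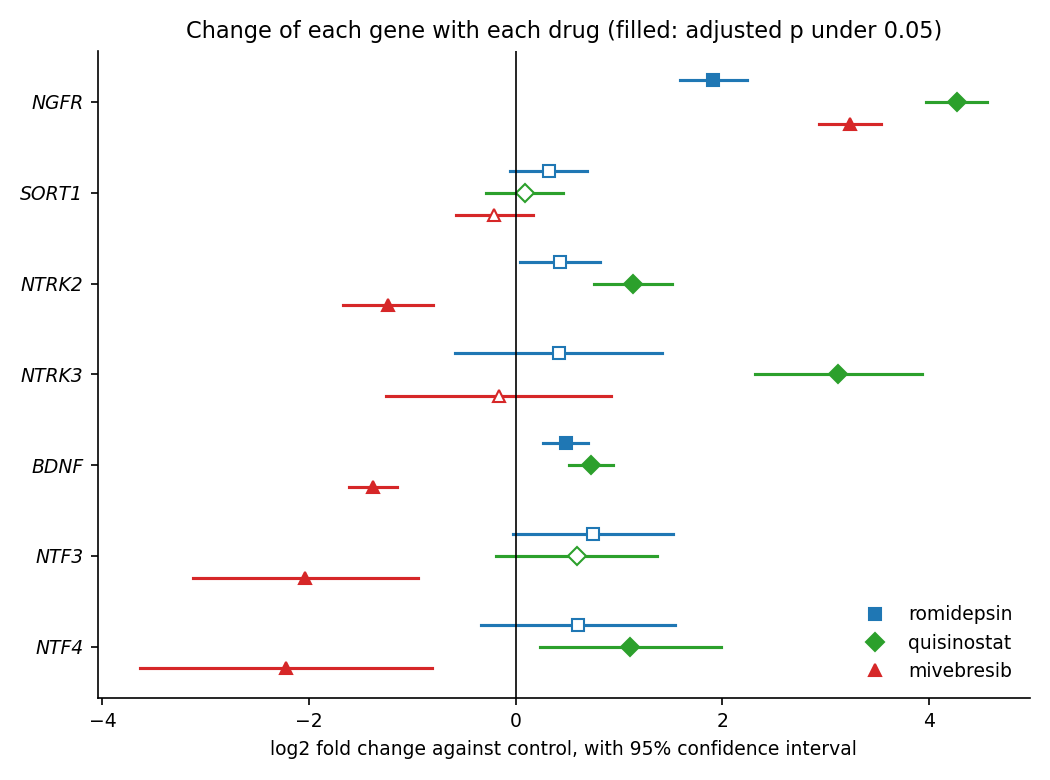
Log2 fold change of each gene against control, with its 95% confidence interval, for romidepsin, quisinostat and mivebresib, where filled points have an adjusted p below 0.05. NGFR lies right of 0 for all 3 drugs, and NTRK2 and BDNF lie right of 0 with quisinostat and left of 0 with mivebresib.

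Sequences upstream of 4 members that moved are shown as examples of their base composition. BDNF, NTF3 and NTRK2 fell together with mivebresib, and NTRK2 and NTRK3 rose together with quisinostat. Each sequence is the 250 bases before a RefSeq start on GRCh38.p14, read 5′ to 3′ on the strand of the gene, and capitals mark a GC box or an E-box. Starts were taken, after their composition was known, from those whose window held at most 29 bases of exons annotated for the same gene.
BDNF, chr11:27720780-27721029, minus strand: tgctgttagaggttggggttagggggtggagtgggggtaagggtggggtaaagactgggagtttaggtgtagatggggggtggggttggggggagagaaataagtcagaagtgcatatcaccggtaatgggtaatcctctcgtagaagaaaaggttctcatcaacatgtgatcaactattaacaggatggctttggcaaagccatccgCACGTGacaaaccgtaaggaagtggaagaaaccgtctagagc
NTF3, chr12:5431858-5432107, plus strand: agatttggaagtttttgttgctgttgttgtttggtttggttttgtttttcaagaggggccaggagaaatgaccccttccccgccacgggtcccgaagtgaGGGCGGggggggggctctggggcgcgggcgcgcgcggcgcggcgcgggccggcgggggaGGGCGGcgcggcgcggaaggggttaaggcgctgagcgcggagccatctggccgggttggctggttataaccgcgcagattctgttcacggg
NTRK2, chr9:84670099-84670348, plus strand: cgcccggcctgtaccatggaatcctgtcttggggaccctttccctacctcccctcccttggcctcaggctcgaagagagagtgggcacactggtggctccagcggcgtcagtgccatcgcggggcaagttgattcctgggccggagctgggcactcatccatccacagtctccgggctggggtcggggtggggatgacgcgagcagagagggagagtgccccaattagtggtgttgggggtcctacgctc
NTRK3, chr15:88256740-88256989, minus strand: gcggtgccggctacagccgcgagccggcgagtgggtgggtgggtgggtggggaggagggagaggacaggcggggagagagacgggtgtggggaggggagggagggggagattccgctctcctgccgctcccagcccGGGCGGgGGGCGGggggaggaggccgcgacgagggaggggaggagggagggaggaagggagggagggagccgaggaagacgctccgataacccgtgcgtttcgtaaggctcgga
The BDNF sequence holds 6 CG dinucleotides and 1 E-box. The NTF3 sequence holds 28 CG dinucleotides and 2 GC boxes, and the NTRK3 sequence 23 CG dinucleotides and 2 GC boxes. The NTRK2 sequence holds 13 CG dinucleotides and none of the motifs searched. Other starts of the same genes differ: the 4 windows of NTRK2 held 3 to 31 CG dinucleotides and 2 of them a GC box, and the 5 windows of BDNF held 3 to 15 and 2 of them a GC box. The median over 35116 promoters of 27305 genes was 11 CG dinucleotides, with quartiles of 3 and 23.

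Of the 7 members, 6 had entries in the RefSeq promoter table, with 15 starts in all, and these were searched on both strands for 5 motifs. The cyclic AMP response element (TGACGTCA, in 1.65% of all promoters), the AP-1 motif (TGANTCA, in 6.57%) and the TATA box (TATAAA, in 10.7%) were found before none of the 15 starts. The E-box (CACGTG, in 6.34%) was found before 1 start, that of BDNF shown above. The GC box (GGGCGG, in 42.6%) was found before 9 of the 15 starts. Some of these windows overlap exons of other transcripts of the same gene, and the deposited counts are summed per gene, so the start that was used in these cells is not known from them.

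BDNF (ENSG00000176697, chr11:27654893-27722058, minus strand), the ligand of TrkB, was the most abundant of the 3 ligands. Its counts were 907 and 1036 in control, 1451 and 1396 with romidepsin, 1775 and 1878 with quisinostat, and 374 and 368 with mivebresib. Both HDAC inhibitor groups lay above control and the mivebresib group lay below it, with no overlap between any 2 groups. Here and for the other members, such separation is a description. Between 2 groups of 2 libraries the smallest 2-sided exact permutation p is 0.333, and the share of all genes so separated was not counted. TMM-scaled levels were 35.0 ± 4.04 CPM in control, 49.0 ± 1.24 with romidepsin, 58.0 ± 2.55 with quisinostat and 13.5 ± 0.314 with mivebresib (SD, n = 2). BDNF rose 1.40-fold with romidepsin (log2 fold change 0.48, SE 0.0948, edgeR adjusted p = 0.00604) and 1.66-fold with quisinostat (log2 fold change 0.73, SE 0.0945, edgeR adjusted p = 0.000302). It fell 2.60-fold with mivebresib (log2 fold change -1.38, SE 0.101, edgeR adjusted p = 1.93e-05). The rise with romidepsin was not past the threshold without romidepsin replicate 1 (log2 fold change 0.46, edgeR adjusted p = 0.0533). BDNF-AS lies opposite BDNF on the other strand, and whether the authors' counting used strand is not given in the sources used here, so reads of the pair may not be separated.

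NTF3 (ENSG00000185652, chr12:5432112-5521536, plus strand), which encodes the main TrkC ligand, had low counts throughout. They were 20 and 18 in control, 35 and 32 with romidepsin, 31 and 34 with quisinostat, and 2 and 7 with mivebresib. Both HDAC inhibitor groups lay above control without overlap, but neither difference passed the test, with a log2 fold change of 0.75 with romidepsin (edgeR adjusted p = 0.126) and 0.59 with quisinostat (edgeR adjusted p = 0.175). NTF3 fell with mivebresib, with a log2 fold change of -2.04 (SE 0.477, edgeR adjusted p = 0.00804). The size rests on the mivebresib pair, with -1.43 without mivebresib replicate 1 (edgeR adjusted p = 0.0416) and -3.15 without mivebresib replicate 2 (edgeR adjusted p = 0.00678). The 9 counts with mivebresib against 38 in control gave a ratio of 0.242, with a 95% exact interval from 0.103 to 0.51 that covers counting error only.

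NTF4 (ENSG00000225950, chr19:49061066-49065054, minus strand), which encodes another TrkB ligand, had the lowest counts. There were 7 and 8 counts in control, 13 and 11 with romidepsin, 20 and 17 with quisinostat, and 1 and 2 with mivebresib. The groups did not overlap, in the same order as for BDNF. The log2 fold change was 0.61 with romidepsin (edgeR adjusted p = 0.309) and 1.11 with quisinostat (SE 0.384, edgeR adjusted p = 0.038), and the latter call was lost in 11 of 16 alternative settings, among them no filter on low counts (edgeR adjusted p = 0.0855) and leaving out any 1 control, romidepsin or quisinostat library (edgeR adjusted p from 0.0635 to 0.183). With mivebresib, 3 counts against 15 in control gave a ratio of 0.205, with a 95% exact interval from 0.0379 to 0.723. The edgeR adjusted p of that fall was 0.0176, and it was 0.0303 with no filter, 0.0698 without control replicate 2 and 0.0935 without mivebresib replicate 1. AC008687.8 overlaps NTF4 on the same strand and has no row in the count table, so reads they share cannot be assigned here.

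NGFR (ENSG00000064300, chr17:49495293-49515017, plus strand) encodes p75NTR, a receptor without kinase activity that binds all neurotrophins and, with more affinity, their precursors. Its counts were 46 and 51 in control, 189 and 194 with romidepsin, 1007 and 1119 with quisinostat, and 471 and 437 with mivebresib. Each group stood clear of the others, in the order control, romidepsin, mivebresib and quisinostat. The TMM-scaled level was 1.75 ± 0.165 CPM in control, 6.59 ± 0.134 with romidepsin, 33.8 ± 2.65 with quisinostat and 16.5 ± 1.07 with mivebresib (SD, n = 2). NGFR rose 3.77-fold with romidepsin (log2 fold change 1.91, SE 0.141, edgeR adjusted p = 9.03e-05), 19.3-fold with quisinostat (log2 fold change 4.27, SE 0.129, edgeR adjusted p = 6.49e-07) and 9.42-fold with mivebresib (log2 fold change 3.24, SE 0.132, edgeR adjusted p = 1.59e-06). All 3 calls stood in each of the 17 alternative settings.

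Markers of other cell types moved with some of these groups. Summed over 8 Schwann cell or glial markers, the level was 531 to 657 CPM in control, 520 to 563 with romidepsin, 392 to 421 with quisinostat and 106 to 115 with mivebresib, so it was lowest in a group in which NGFR was high. Summed over 8 neuronal markers it was 73.2 to 78.8, 52.3 to 54.1, 120 to 133 and 343 to 370 CPM in the same order, most of it from TUBB3, a tubulin, and ELAVL4 was at 0 in control and with mivebresib. None of the other neuronal markers was highest with mivebresib, as the sum was. SYT1, of synaptic vesicles, had 12 and 14 counts in control and 80 and 95 with romidepsin. With quisinostat it had 286 and 276 counts, and with mivebresib 8 and 21. SYN1 stood above control with mivebresib, at 62 and 56 counts against 7 and 5, and had 172 and 196 with quisinostat. RBFOX3 had 13 and 12 counts with mivebresib against 6 and 7 in control, and SNAP25 had 10 and 6 against 15 and 15. Summed over 5 fibroblast markers, the level was 13.6 to 20.8 CPM in control, 20.1 to 24.7 with romidepsin, 37.8 to 38.7 with quisinostat and 7.8 to 10.4 with mivebresib, and LUM was at 0 in the control, quisinostat and mivebresib groups. Summed over 4 epithelial markers it was 1.43 to 2.3, 4.71 to 5.35, 4.01 to 5.38 and 0.632 to 0.696 CPM, and KRT5 was at 0 in every library. Their part in the NGFR result was not tested. In RNA from whole wells, fewer cells of a type and less RNA per cell cannot be told apart.

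SORT1 (ENSG00000134243, chr1:109309568-109397951, minus strand) encodes sortilin, the coreceptor of p75NTR for precursors and a sorting receptor of the Golgi. It had 12585 and 17445 counts in control, 21044 and 18211 with romidepsin, 17349 and 18880 with quisinostat, and 12127 and 13765 with mivebresib. The control libraries were far apart, and on the TMM scale each drug group overlapped their range. No change against control passed the test, with a log2 fold change of 0.32 with romidepsin (edgeR adjusted p = 0.173), 0.09 with quisinostat (edgeR adjusted p = 0.678) and -0.21 with mivebresib (edgeR adjusted p = 0.335). The 95% confidence interval with quisinostat ran from -0.29 to 0.46, so a rise or fall beyond those bounds lies outside it. These results rest on the control pair: without control replicate 2, SORT1 was higher with romidepsin (log2 fold change 0.60, edgeR adjusted p = 0.00192) and with quisinostat (log2 fold change 0.36, edgeR adjusted p = 0.0181), and without control replicate 1 it was lower with mivebresib (log2 fold change -0.44, edgeR adjusted p = 0.00824).

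NTRK2 (ENSG00000148053, chr9:84668551-85027070, plus strand) encodes TrkB, the receptor of BDNF and NTF4. Its counts were 182 and 207 in control, 267 and 281 with romidepsin, 469 and 499 with quisinostat, and 64 and 100 with mivebresib. The 4 groups did not overlap, with mivebresib lowest and quisinostat highest, the order that BDNF also had. NTRK2 rose 2.19-fold with quisinostat (log2 fold change 1.13, edgeR adjusted p = 0.00057) and fell 2.35-fold with mivebresib (log2 fold change -1.24, edgeR adjusted p = 0.000968). With romidepsin the log2 fold change was 0.43 (95% confidence interval 0.04 to 0.82, edgeR adjusted p = 0.087), and it passed without control replicate 2 (log2 fold change 0.55, edgeR adjusted p = 0.0378).

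NTRK3 (ENSG00000140538, chr15:87859751-88256768, minus strand) encodes TrkC, the receptor of NTF3. It had 13 and 22 counts in control, 22 and 27 with romidepsin, 167 and 181 with quisinostat, and 8 and 23 with mivebresib. Quisinostat stood apart, and the mivebresib libraries spanned the control values. NTRK3 rose 8.72-fold with quisinostat (log2 fold change 3.12, SE 0.354, edgeR adjusted p = 0.000147). The log2 fold change was 0.42 with romidepsin (edgeR adjusted p = 0.499) and -0.16 with mivebresib (95% confidence interval -1.25 to 0.92, edgeR adjusted p = 0.802), so changes within that interval are not excluded. NTRK2 has 8 annotated coding transcripts and NTRK3 has 14, and counts per gene do not separate full-length receptors from truncated forms that lack the kinase.

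The drugs were also compared with each other. Romidepsin and quisinostat, HDAC inhibitors of different structural classes at the same 40 nM, differed in 3 of 7 members, all higher with quisinostat, where 21.0% of all genes were higher and 14.6% lower. These were NGFR with a log2 difference of 2.36 (edgeR adjusted p = 2.61e-05), NTRK3 with 2.71 (edgeR adjusted p = 0.000646) and NTRK2 with 0.71 (edgeR adjusted p = 0.01). The NTRK2 difference was not past the threshold without romidepsin replicate 1, romidepsin replicate 2 or quisinostat replicate 2 (edgeR adjusted p from 0.0527 to 0.0809). BDNF differed by 0.24 (95% confidence interval 0.03 to 0.46, edgeR adjusted p = 0.0727), NTF3 by -0.16 (edgeR adjusted p = 0.732), NTF4 by 0.50 (edgeR adjusted p = 0.301) and SORT1 by -0.23 (edgeR adjusted p = 0.309).

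Mivebresib differed from romidepsin in 6 of 7 members, with 1 higher, where 23.7% of all genes were, and 5 lower, or 4 without NTF4, where 25.2% were. The higher member was NGFR, by 1.32 on the log2 scale (edgeR adjusted p = 3.37e-05). BDNF was lower by a log2 difference of -1.86 (edgeR adjusted p = 4.77e-06), NTRK2 by -1.66 (edgeR adjusted p = 0.000161), NTF3 by -2.79 (edgeR adjusted p = 0.000981, from -3.90 to -2.18 with 1 library left out) and SORT1 by -0.52 (edgeR adjusted p = 0.0279), the last being lost in 5 of 17 alternative settings. NTF4 was lower too, with 1 and 2 counts against 13 and 11 (edgeR adjusted p = 0.00349). NTRK3 differed by -0.58 (edgeR adjusted p = 0.317).

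Mivebresib was lower than quisinostat in 6 of 7 members, or 5 of 6 without NTF4, where 31.5% of all genes were, and higher in 0, where 26.2% were. NTRK3 differed by -3.29 (edgeR adjusted p = 0.000101, and -4.21 without mivebresib replicate 2), NTRK2 by -2.37 (edgeR adjusted p = 1.52e-05) and BDNF by -2.11 (edgeR adjusted p = 1.71e-06). The difference of NGFR was smaller, at -1.04 (edgeR adjusted p = 5.05e-05), both drugs having raised it. NTF3 differed by -2.63 (edgeR adjusted p = 0.00106, from -3.74 to -2.02 with 1 library left out), and NTF4 had 1 and 2 counts against 20 and 17 (edgeR adjusted p = 0.000768). SORT1 differed by -0.29, which did not pass (edgeR adjusted p = 0.157). Doses differ between mivebresib and the HDAC inhibitors, so these values stand side by side for the doses used.

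Levels can be compared between genes only per length, and CPM were therefore divided by the merged exon length of each gene in GENCODE 29. In control, SORT1 was by far the most abundant at 56.1 ± 13.1 CPM per kb, followed by BDNF at 4.29 ± 0.425, NGFR at 0.400 ± 0.0312 and NTRK2 at 0.327 ± 0.0313 (SD, n = 2). NTF3 at 0.222 ± 0.0154, NTF4 at 0.175 ± 0.0173 and NTRK3 at 0.0224 ± 0.00825 came below them. With quisinostat, NGFR reached 8.88 ± 0.69 CPM per kb and BDNF 8.18 ± 0.353, with intervals of 1 SD that overlapped. With mivebresib, NGFR at 3.82 ± 0.179 stood above BDNF at 1.68 ± 0.00873, the reverse of their order in control.

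NGFR and BDNF were then set against the Trk receptors within each library. The ratio of NGFR to the sum of NTRK2 and NTRK3, per kb, was 1.18 and 1.12 in control, 3.27 and 3.16 with romidepsin, 8.29 and 8.62 with quisinostat, and 33 and 18.2 with mivebresib. It was higher in every drug library than in both control libraries, and highest with mivebresib, where NGFR rose and NTRK2 fell. The ratio of BDNF to the same sum was 12.4 and 12.2 in control, 13.5 and 12.2 with romidepsin, 7.83 and 7.76 with quisinostat, and 14 and 8.24 with mivebresib, so it was lower than control with quisinostat, and the mivebresib libraries lay on either side of control. BDNF and NTRK2 had fold changes of the same sign with each drug, although NTRK2 did not pass the test with romidepsin.

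The ratio of BDNF to NGFR per kb was 10.6 and 10.9 in control, 4.12 and 3.86 with romidepsin, 0.945 and 0.9 with quisinostat, and 0.426 and 0.452 with mivebresib. It was lower in every drug library than in control. With 2 libraries a group the smallest 2-sided exact permutation p between 2 groups is 0.333, so the ratios are given as values with no test. The order of genes within a library depends on the length chosen: over the longest coding transcript the control ratio of NGFR to NTRK2 plus NTRK3 was 0.619 and 0.595, below 1, and the quisinostat ratio of BDNF to NGFR was 1.26 and 1.2, above 1. The order of the groups in these 2 ratios was the same with either length.

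**Figure D3:**
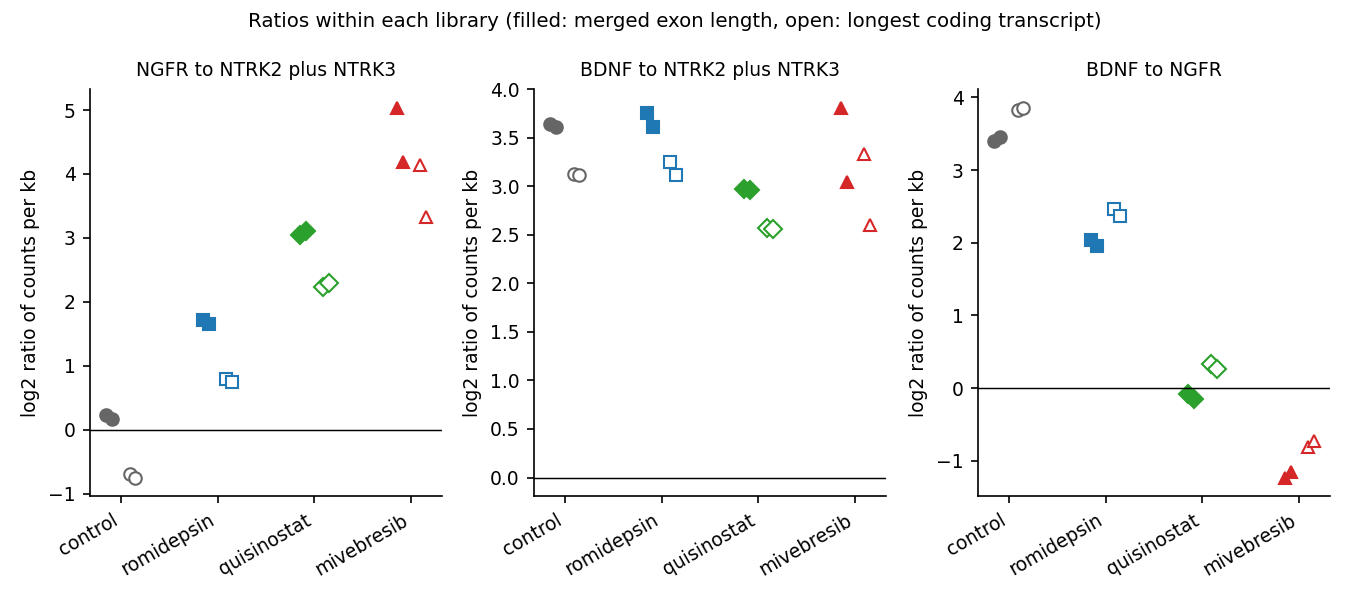
Log2 ratio of counts per kb within each library for NGFR to NTRK2 plus NTRK3, BDNF to NTRK2 plus NTRK3, and BDNF to NGFR, by group (grey circles control, blue squares romidepsin, green diamonds quisinostat, red triangles mivebresib). Filled points use merged exons and open points the longest coding transcript; the first ratio climbs from control to mivebresib and the last descends, under both lengths.

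Over the 8 libraries, Pearson's r of log2 CPM described which members ran together. The 8 points are 4 pairs of libraries, and the 2 genes of each r share the library totals, so r is a description of the group pattern. It was 0.962 between NTRK2 and BDNF, 0.984 between NTRK2 and NTF4, and 0.985 between BDNF and NTF4. NTF3 had 0.937 to BDNF, and NTRK3 and SORT1 were less close to BDNF, with 0.655 and 0.692. Of the members, NGFR had the lowest r to BDNF, at 0.000122, with 0.156 to NTRK2, -0.055 to SORT1 and 0.62 to NTRK3. Among 11797 genes, those most like NGFR were SESN3 (r = 0.998), DHX40 (r = 0.996) and GABRQ (r = 0.995), and those most like BDNF were DAAM2 (r = 0.997), ILDR2 (r = 0.996) and BTN3A2 (r = 0.996). TMEM71 (r = 0.995) and AFF3 (r = 0.993) were most like NTRK2, and PDE3B (r = 0.989) was most like NTRK3.

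Other genes of the pathway, with 13 genes of the GDNF, CNTF and MANF factor systems, were followed in 7 lists, here called pathway genes. Of these 84 genes, 78 were tested. With romidepsin 18 were higher and 13 lower, with quisinostat 29 and 21, and with mivebresib 22 and 25, so that 23.1%, 37.2% and 28.2% of the tested pathway genes were higher, where 15.2%, 28.0% and 22.2% of all genes were, and 16.7%, 26.9% and 32.1% were lower, where 15.8%, 25.1% and 24.1% of all genes were. Their median log2 fold change lay between 0.0418 and 0.0723 with the 3 drugs, near that of all genes, and below the members' medians with both HDAC inhibitors. The genes counted as higher with quisinostat include SORCS2, SORCS3, BEX1 and CPE, which passed the filter only through drug groups. BEX1 with romidepsin and SORCS2 with mivebresib are counted as well. The tests of such genes against control are not independent of the filter, so these counts are descriptions.

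Among the ligands and receptors outside the members were SORL1, SORCS1, SORCS2 and SORCS3, the relatives of sortilin. All 6 genes of this list were tested. With romidepsin 2 were higher, with quisinostat 5 and with mivebresib 1, and 0 were lower with any drug. Those higher came to 33.3%, 83.3% and 16.7% in that order, against 15.2%, 28.0% and 22.2% of all genes. Those lower came to 0% each, against 15.8%, 25.1% and 24.1%. Some of these genes passed the filter only through drug groups, so the counts are descriptions. SORL1, SORCS1 and SORCS2 were among those higher with quisinostat, each beyond a log2 fold change of 1.5. SORL1 had 69 and 110 counts in control, 184 and 139 with romidepsin, 383 and 426 with quisinostat, and 106 and 112 with mivebresib, and it rose with quisinostat (log2 fold change 1.99, edgeR adjusted p = 0.000132) and romidepsin (log2 fold change 0.78, edgeR adjusted p = 0.0343). SORCS1 rose with quisinostat (log2 fold change 2.54, edgeR adjusted p = 0.000263) and romidepsin (log2 fold change 1.27, edgeR adjusted p = 0.0269). SORCS2 passed the filter only through the drug groups, so its tests against control are not independent of the filter. It had 6 and 10 counts in control and 56 and 47 with quisinostat (log2 fold change 2.49, edgeR adjusted p = 0.000871). With mivebresib it had 24 and 17 counts (log2 fold change 1.36, edgeR adjusted p = 0.0331). SORCS3 had 16 and 11 counts with quisinostat, 1 and 1 with romidepsin, and 0 in all control and mivebresib libraries. It passed the filter only through quisinostat, so no fold is given for it, although the list counts include it. SORT1 itself did not pass the test with quisinostat. The median log2 fold change of this list was 1.08 with romidepsin and 2.51 with quisinostat, above the members' 0.485 and 1.11. With mivebresib it was 0.291, where the members' median was -1.24.

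Of 12 genes that cleave or sort neurotrophin precursors, 10 were tested. With romidepsin 1 was higher and 0 lower, with quisinostat 3 and 0, and with mivebresib 1 and 2. Those higher with quisinostat were CPE, a sorting receptor and carboxypeptidase of secretory granules (44 and 58 counts against 7 and 0 in control, edgeR adjusted p = 0.0111, and under the filter's cutoff in control), and the proprotein convertases PCSK1 (log2 fold change 0.82, edgeR adjusted p = 0.00418) and PCSK7 (log2 fold change 0.41, edgeR adjusted p = 0.0289). With mivebresib PCSK1 fell (log2 fold change -1.21, edgeR adjusted p = 0.000817), as did PLAT, tissue plasminogen activator (log2 fold change -1.11, edgeR adjusted p = 0.00168). PCSK1 thus had the directions of BDNF with quisinostat and mivebresib. In the order romidepsin, quisinostat, mivebresib, 10%, 30% and 10% of those tested were higher against 15.2%, 28.0% and 22.2% of all genes, and 0%, 0% and 20% were lower against 15.8%, 25.1% and 24.1%.

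Of 14 partners of p75NTR, 13 were tested. With romidepsin 2 were higher (BEX1 and RIPK2) and 3 lower (PRDM4, ARHGDIA and RTN4R). With quisinostat 3 were higher (BEX1, RIPK2 and LINGO1) and 5 lower (MAGED1, PRDM4, IRAK1, ARHGDIA and RTN4R). With mivebresib 6 were higher and 4 lower (BEX3, MAGED1, IRAK1 and LINGO1). BEX1, an adaptor that binds p75NTR, had 8 and 2 counts in control, 25 and 26 with romidepsin (edgeR adjusted p = 0.00498), 584 and 514 with quisinostat (edgeR adjusted p = 1.62e-06) and 5 and 6 with mivebresib. It passed the filter only through the romidepsin and quisinostat groups, so its tests against control are not independent of the filter. BEX1 stood highest with quisinostat as NGFR did. LINGO1, a coreceptor for myelin inhibitors, rose with quisinostat (log2 fold change 0.89, edgeR adjusted p = 0.000281) and fell with mivebresib (log2 fold change -1.28, edgeR adjusted p = 0.000103), when NGFR rose. Those higher came to 15.4%, 23.1% and 46.2% for the 3 drugs in that order, against 15.2%, 28.0% and 22.2% of all genes, and those lower to 23.1%, 38.5% and 30.8%, against 15.8%, 25.1% and 24.1%.

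All 17 Trk adaptors were tested. With romidepsin 2 were higher (SHC4 and RASGRF1) and 4 lower (SHC2, SH2B1, GAB1 and SQSTM1). With quisinostat 5 were higher (SHC3, SHC4, SH2B2, RASGRF1 and MAGI2) and 8 lower, and with mivebresib 3 were higher (PLCG1, CRK and SQSTM1) and 6 lower. RASGRF1, a Ras exchange factor, rose with romidepsin (log2 fold change 0.72, edgeR adjusted p = 0.00355) and quisinostat (log2 fold change 1.73, edgeR adjusted p = 1.11e-05) and fell with mivebresib (log2 fold change -2.87, edgeR adjusted p = 8.94e-06). SHC4, a Shc adaptor, did the same, with 0.71 (edgeR adjusted p = 0.0112), 1.44 (edgeR adjusted p = 0.000115) and -2.07 (edgeR adjusted p = 7.31e-05) on the log2 scale. Both had the directions of BDNF and NTRK2. In the order romidepsin, quisinostat, mivebresib, 11.8%, 29.4% and 17.6% of those tested were higher against 15.2%, 28.0% and 22.2% of all genes, and 23.5%, 47.1% and 35.3% were lower against 15.8%, 25.1% and 24.1%.

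Of 12 genes that neurotrophin signaling induces, most of them immediate early genes that other pathways also drive, 11 were tested. With romidepsin 6 were higher and 2 lower (EGR3 and DUSP6). With quisinostat 5 were higher (VGF, ARC, EGR2, SPRY4 and HOMER1) and 4 lower (EGR1, EGR3, FOS and DUSP6), and with mivebresib 3 were higher (ARC, EGR1 and HOMER1) and 6 lower. EGR2 rose with romidepsin (log2 fold change 2.52, edgeR adjusted p = 0.000123) and quisinostat (log2 fold change 2.06, edgeR adjusted p = 6.92e-05). EGR3 fell with quisinostat (log2 fold change -1.69, edgeR adjusted p = 3.16e-05) and mivebresib (log2 fold change -4.05, edgeR adjusted p = 2.32e-06). Genes of this list moved in both directions with each drug. Those higher came to 54.5%, 45.5% and 27.3% for the 3 drugs in that order, against 15.2%, 28.0% and 22.2% of all genes, and those lower to 18.2%, 36.4% and 54.5%, against 15.8%, 25.1% and 24.1%.

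All 10 listed regulators of BDNF transcription were tested. With romidepsin 2 were higher (CREB1 and CAMK4) and 4 lower (REST, CREBBP, CRTC1 and USF1). With quisinostat 1 was higher (CAMK4) and 4 lower, among them CREBBP, CRTC1 and USF1, and with mivebresib 3 were higher (SIN3A, CREB1 and CAMK4) and 4 lower, among them CREBBP, USF1 and USF2. CAMK4, a kinase that acts on CREB, rose with romidepsin (log2 fold change 1.17, edgeR adjusted p = 0.002), quisinostat (log2 fold change 1.93, edgeR adjusted p = 4.02e-05) and mivebresib (log2 fold change 0.59, edgeR adjusted p = 0.0288). CRTC1, a CREB coactivator, fell with romidepsin (log2 fold change -0.76, edgeR adjusted p = 0.00406) and quisinostat (log2 fold change -1.52, edgeR adjusted p = 5.27e-05), the drugs with which BDNF rose. In the order romidepsin, quisinostat, mivebresib, 20%, 10% and 30% of those tested were higher against 15.2%, 28.0% and 22.2% of all genes, and 40%, 40% and 40% were lower against 15.8%, 25.1% and 24.1%.

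Of 13 genes of the GDNF, CNTF and MANF factor systems, 11 were tested. With romidepsin 3 were higher (GFRA2, CNTF and LIFR) and 0 lower, with quisinostat 7 and 0, and with mivebresib 5 were higher (GDNF, RET, CNTFR, LIFR and MANF) and 3 lower (GFRA1, GFRA2 and CNTF). GFRA2, the neurturin coreceptor, had the directions of BDNF, rising with romidepsin (log2 fold change 0.66, edgeR adjusted p = 0.0402) and quisinostat (log2 fold change 2.77, edgeR adjusted p = 8.33e-06) and falling with mivebresib (log2 fold change -1.84, edgeR adjusted p = 0.000852). RET, the kinase it signals through, rose with quisinostat (log2 fold change 2.50, edgeR adjusted p = 8.27e-05) and also with mivebresib (log2 fold change 1.70, edgeR adjusted p = 0.000964), as NGFR did. Those higher came to 27.3%, 63.6% and 45.5% for the 3 drugs in that order, against 15.2%, 28.0% and 22.2% of all genes, and those lower to 0%, 0% and 27.3%, against 15.8%, 25.1% and 24.1%.

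**Figure D4:**
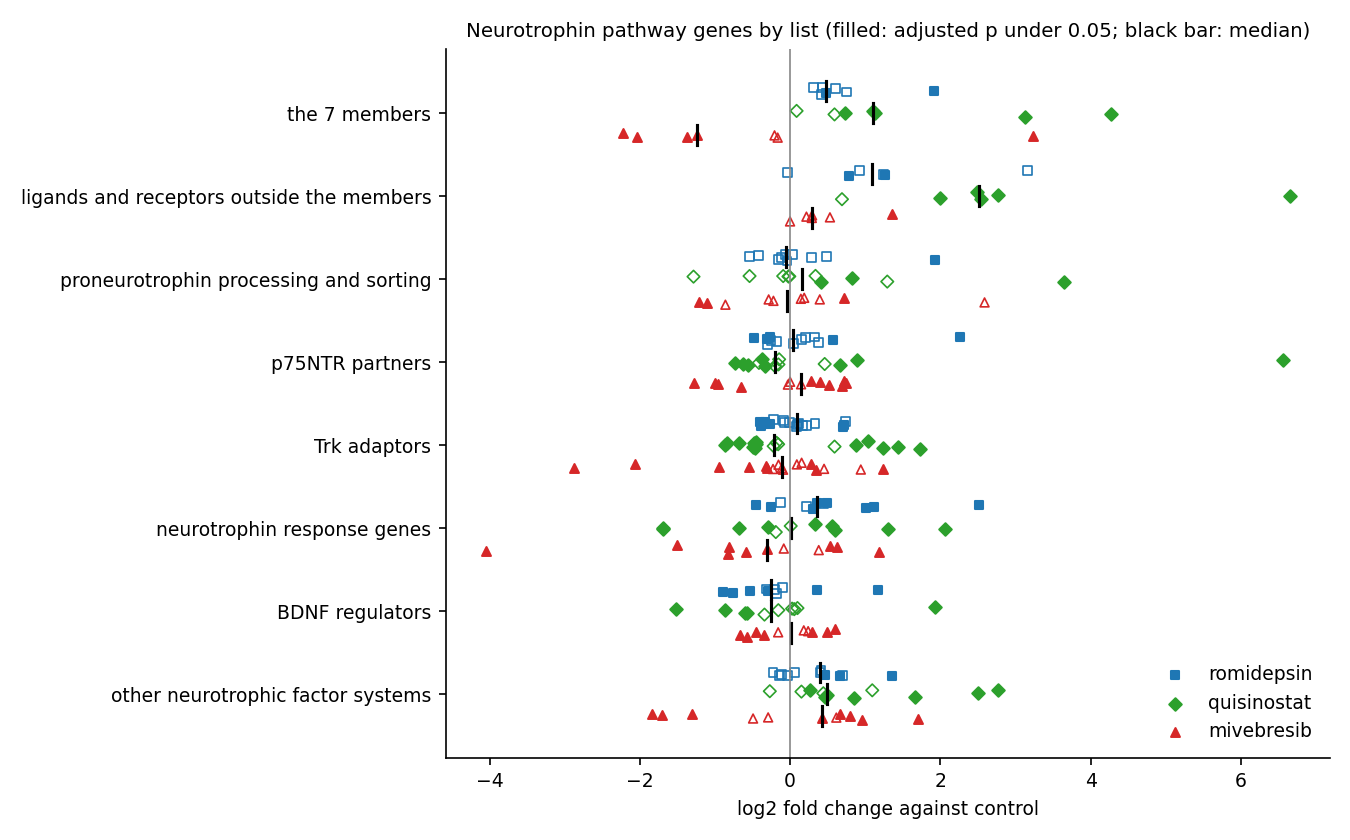
Log2 fold change against control for the 7 members and the genes of 7 pathway lists, with 1 point per tested gene and drug, filled where the adjusted p is below 0.05, and a black bar at each median. The members' median lies right of 0 with both HDAC inhibitors and left of 0 with mivebresib, while most list medians lie near 0. With both HDAC inhibitors the median of the ligands and receptors outside the members lies further right than the members' median. Genes that passed the filter only through drug groups, such as SORCS3, are plotted too.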

How the data were processed

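MP38 libraries were strand-specific mRNA libraries read as 150-base pairs. Per the study's methods the reads were analysed with BioJupies, and per the submitters' processing notes the build was hg38; the aligner and annotation are not given in the sources used here. The authors deposited raw read counts per gene symbol, a table of log10 values that equals log10(CPM + 1) of those counts (largest difference 4.44e-16), and a quantile-normalized score. The counts were the values tested; the deposited score served for 1 alternative and the deposited log10 table for no test.

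The members and the pathway lists were chosen with earlier results of these data known. Groups came from the sample labels. Genes passing edgeR's filterByExpr (4.0.16, R 4.3.3) were fitted in 1 quasi-likelihood model of all 8 libraries with TMM scaling. P-values were adjusted by Benjamini-Hochberg over the 15085 tested genes within each of 6 contrasts. The common biological coefficient of variation was 0.0938. Per gene list, at most the 3 genes with the largest change per drug among those past the threshold and with at least 20 counts in a library were named, beside genes needed to account for a count of 5 or fewer, except genes not reported here; for likeness, the 3 genes with the highest r among genes whose log2 CPM averaged 1 or more. Limma (3.58.1) and DESeq2 (1.42.0) served as alternatives. The scripts were tested on simulated data. Positions and lengths came from GENCODE 29 on GRCh38, and promoters from RefSeq. The model took no pairing by replicate number, as given with the alternatives below.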

Additional observations from a re-analysis of the deposited data

How the results depend on the processing

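Alternatives were another scaling, another filter, limma or DESeq2 in place of edgeR, only the 4 libraries of a comparison, a replicate block, the deposited quantile-normalized table, the study's larger fold threshold, and leaving out each library, where a lone library is assumed to vary like the other groups. The NGFR calls against control held in all of them, as did its call between quisinostat and romidepsin. Its differences of mivebresib from romidepsin (1.32) and from quisinostat (-1.04) fell short of the larger fold threshold and held in the other alternatives. NTF3, NTF4 and NTRK3 had low counts, and SORT1 differed within the control pair.

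The count of members called with romidepsin went from 2 to 1 on the quantile table and 1 beyond the log2 fold change of 1.5. With quisinostat it went from 5 to 3 at a mean CPM of at least 5, 2 on the quantile table and 2 beyond 1.5. With mivebresib it went from 5 to 3 at a mean CPM of at least 5 and 3 beyond 1.5. Between quisinostat and romidepsin it went from 3 to 5 with only 4 libraries, and between mivebresib and quisinostat from 6 to 3 at a mean CPM of at least 5. Of the pathway genes, 31 were called with romidepsin, 17 with only 4 libraries, 5 on the quantile table and 3 beyond 1.5; 50 with quisinostat, 18 on the quantile table and 16 beyond 1.5; and 47 with mivebresib, 18 on the quantile table and 7 beyond 1.5. The mean CPM filter removes the low members by construction; the cause of the other shifts was not tested.

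Leaving out 1 library gave 1 to 4 members with romidepsin (1 without romidepsin replicate 1, 4 without control replicate 2), 2 to 5 between quisinostat and romidepsin, and 13 to 41 pathway genes with romidepsin. Leaving out 1 library moved the log2 fold change of NTRK3 with mivebresib between -1.10 and 0.39 (positive without control replicate 2, at 0.28, and without mivebresib replicate 1), that of SORT1 with quisinostat between -0.15 (without control replicate 1) and 0.36, and that of SORT1 with mivebresib between -0.44 and 0.071 (without control replicate 2); no value whose sign was turned passed the threshold. On the quantile table, whose scale is not log2, the sign reversed for SORT1 between quisinostat and romidepsin (2.507e-06), NTF3 with quisinostat (-3.476e-06) and NTF4 between quisinostat and romidepsin (-1.643e-06). BDNF with romidepsin and quisinostat, and NTRK2 with quisinostat (adjusted p 0.127) and mivebresib (adjusted p 0.0842), were not past the threshold there by limma. The mean log2 ratio of NGFR to NTRK2 plus NTRK3 in control turned to -0.72 with the longest coding transcript.

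The deviations of same-numbered libraries were weakly related between groups (r from -0.162 to 0.158). Each group gives a single difference, so this cannot show whether the numbers pair the samples, and the main model took no pairing. With the replicate block 4 members were called with quisinostat, NTF4 being lost (log2 fold change 1.11, edgeR adjusted p = 0.0633), and no other count of members changed.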
